A study of Mus musculus with 2 samples.

Results

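The genes described here are the guidance cues and their receptors: the semaphorins with the plexins and neuropilins, the slits with the roundabout receptors, the ephrins with the Eph receptors, and the netrins with the Unc5 receptors. The rule matches symbols and uses no signal, though these families were picked with earlier results of these data known, and 71 of the 24646 gene symbols in the deposited comparison table matched. The pattern for Unc5 also takes in Unc5cl, which is Unc5c-like by name. RNA came from stromal cells of the mouse mammary gland, dissociated and sorted for the green fluorescence that the Rosa26 mTmG reporter gives in cells marked by Fsp1-Cre, a Cre driven by the promoter of Fsp1 (S100a4). The 2 samples came from littermates aged 10 weeks: 1 was a control of genotype Gli2WT and 1 was of genotype Gli2∆S, in which Gli2, a transcription factor of the hedgehog pathway, was ablated in the stroma. Both carried Fsp1-Cre marking and the reporter, and the labels do not say how many animals went into each. Signals came from Affymetrix arrays, on a log2 scale, and every difference below is ablated minus control. With 1 sample per group no difference has a replicate check and no test was possible, so genes were described by size alone.

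Guidance cues are secreted or membrane-bound ligands that attract or repel cells and growing axons, and the same families shape vessels, ducts and stroma. Slits are large secreted ligands of roundabout receptors, and in the mouse mammary gland Slit2 and Slit3 acting on Robo1 are known to restrain ductal branching. Semaphorins signal through plexins, the secreted class 3 mostly with a neuropilin as the binding partner. Ephrins are held at the membrane and signal to Eph receptor kinases on touching cells, and netrins act through Dcc, neogenin and Unc5 receptors, netrin-1 with neogenin being known for adhesion in mammary end buds.

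Promoter sequences are shown for the pair of slits and for Sema3c, because Slit2 and Sema3c were the only guidance genes at least 2-fold apart and Slit3 came close. They run from 250 bases before to 50 after the annotated start, 5′ to 3′ on the plus strand, from RefSeq (GRCm38.p6). Capitals mark CCACCC or its reverse complement GGGTGG, the core inside the GLI consensus GACCACCCA, and TATAAA or TTTATA, the letters of a TATA box.
Slit2 promoter, chr5:47982905-47983204: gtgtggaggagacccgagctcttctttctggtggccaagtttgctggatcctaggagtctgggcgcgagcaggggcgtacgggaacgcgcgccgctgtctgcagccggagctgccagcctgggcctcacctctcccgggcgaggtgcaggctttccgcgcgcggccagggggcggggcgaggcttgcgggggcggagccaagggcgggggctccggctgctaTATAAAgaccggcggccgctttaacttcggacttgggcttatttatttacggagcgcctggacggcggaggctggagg
Slit3 promoter, chr11:35121206-35121505: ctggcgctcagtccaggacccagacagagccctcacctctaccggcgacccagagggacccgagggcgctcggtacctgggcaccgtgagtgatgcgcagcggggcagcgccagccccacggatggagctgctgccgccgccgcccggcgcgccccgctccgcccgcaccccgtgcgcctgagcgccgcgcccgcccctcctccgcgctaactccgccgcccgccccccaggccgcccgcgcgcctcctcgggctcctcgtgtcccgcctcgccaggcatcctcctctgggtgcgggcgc
Sema3c promoter, chr5:17574566-17574865: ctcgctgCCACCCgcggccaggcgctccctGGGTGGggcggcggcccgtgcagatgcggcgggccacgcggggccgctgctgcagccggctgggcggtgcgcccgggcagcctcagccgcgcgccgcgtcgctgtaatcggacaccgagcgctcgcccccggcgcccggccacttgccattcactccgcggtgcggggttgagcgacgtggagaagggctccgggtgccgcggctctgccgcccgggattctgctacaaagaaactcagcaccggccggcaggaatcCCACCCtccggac

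The Slit2 window held TATAAA once, 28 bases before the start, and the Sema3c window held the CCACCC core 3 times, at 243 and 220 bases before and 37 bases after the start. The Slit3 window held neither. All were rich in G and C, at 68% in Slit2, 78.3% in Slit3 and 75.7% in Sema3c, against a median of 52.7% over the 32851 promoter windows of the table. The table held 62 of the 71 guidance genes. On either strand the full consensus GACCACCCA was in 0 of these 62 and in 0.289% of the 27025 genes with a promoter there. Its core CCACCC, added to the search later, was in 37 of 62 guidance genes (59.7%) and in 34.0% of all genes, and TATAAA was in 2 of 62 (3.23%) and in 15.7% of all genes. Of the 8 guidance genes in the table that were at least 1.5-fold lower, 5 held the core (Epha3, Plxna2, Sema3c, Sema5a and Sema7a), a share near that of all 62. These are matches of letters in a short window only. CCACCC is itself rich in G and C, and the part of base content in these shares was not tested.

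Over the whole table, signals ran from 1.73 to 13.6, with a median of 6.13 in both samples. The brighter of both signals had to reach 6.445, its median across the 24646 genes, for a gene to count as past the signal filter, and 12323 genes did. Gli2 stayed below the filter, at 5.94 in control cells and 5.32 after ablation. In the other deposited table, the value table of the series, the ablated signal of Gli2 was 5.72, which makes its difference -0.22 and not -0.62. The tables agreed within 0.006 in 41343 of 41345 rows, every guidance gene included, and the exceptions were Gli2 and Bmp7, a bone morphogenetic protein. Whether the Gli2 probes lie in the deleted part of the gene is not stated in the labels. Fibroblast markers were present in both samples, but so were markers of other cells: the B cell gene Cd79a stood at 11.51 and 11.53 and the T cell gene Cd3e at 11.09 and 11.43 in the control and ablated samples. All 5 basal epithelial markers stayed below the filter, and no marker was at 0.

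Guidance genes were mostly lower in the ablated sample. Of the 71, 55 were lower, 14 higher and 2 equal, with a median of -0.28, whereas 47.0% of all 24646 genes were lower and their median was 0. The filter was passed by 40, of which 33 were lower, 6 higher and 1 equal (median -0.29). Over all genes past the filter 44.8% were lower, and the median was 0.02. At least 2-fold lower were 2 of the 40 (5%), against 1.73% of all genes past the filter, and 9 (22.5%) were at least 1.5-fold lower, against 4.67%. At least 2-fold higher were 0 guidance genes, against 0.373% of all genes, and at least 1.5-fold higher were also 0, against 1.25%. Because the filter takes the higher signal, 11 of the 40 passed through the control sample alone and so had to be lower. Epha10 passed through the ablated sample alone, and 28 passed in both. The 2-fold genes Slit2 and Sema3c, and Robo1 and Epha3 among the 9, passed through the control sample alone. In both samples 17 ligands and 11 receptors passed. Of these, 0 were at least 2-fold lower, and 4 ligands and 1 receptor at least 1.5-fold lower. The share of all genes under this stricter filter was not computed. In bulk RNA, fewer cells of a type and less RNA per cell cannot be told apart.

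**Figure D1:**
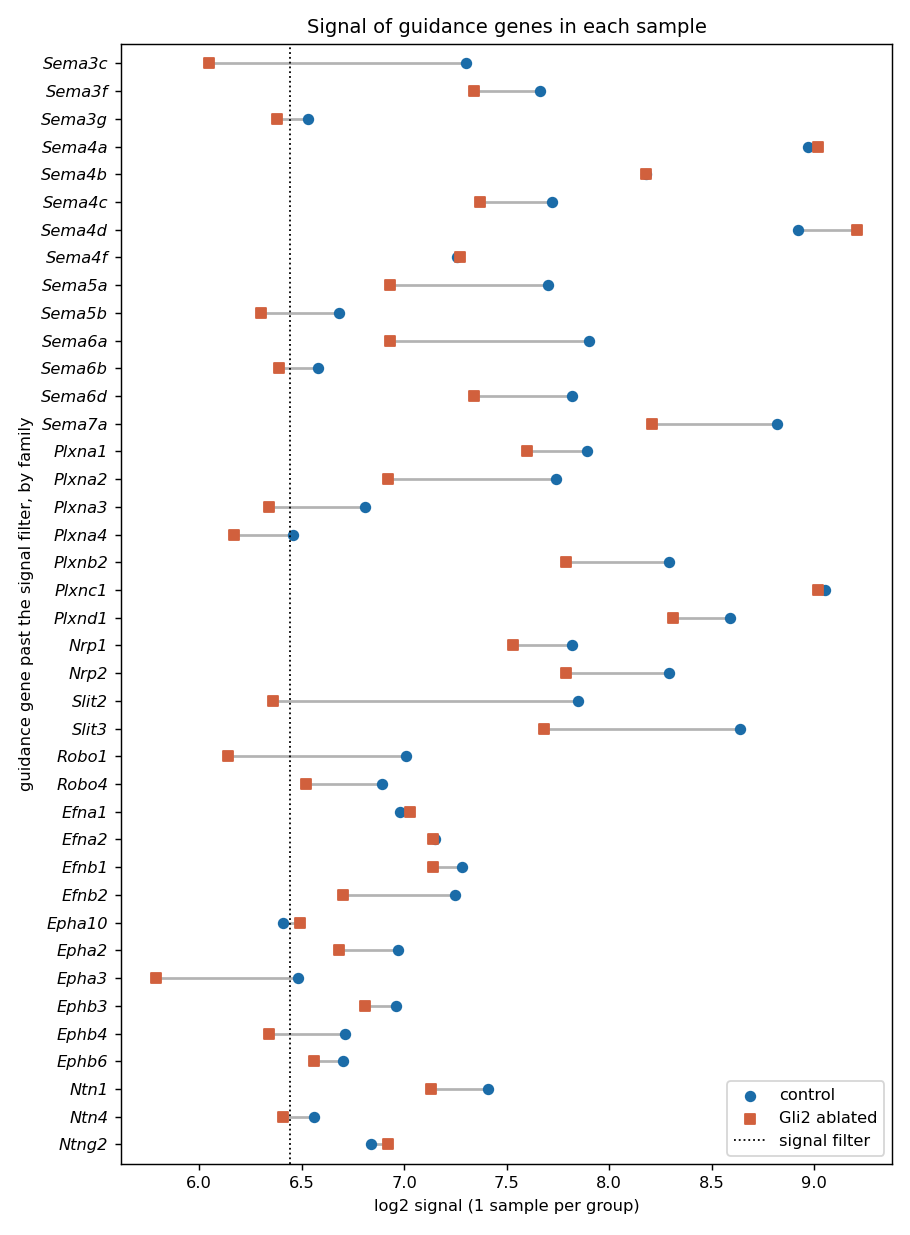
Log2 signal of each of the 40 guidance genes past the signal filter (x axis) in the control sample (circles) and the ablated sample (squares), ordered by family. The grey bar joins both signals of a gene, and the dotted line is the filter at 6.445: the bars of Slit2 and Sema3c are the longest, and those of Sema4b and Sema4f are almost closed.

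Slit2 had the largest difference of all guidance genes, and Slit3 one of the larger ones. Slit2, transcript cluster 17437302, had a signal of 7.85 in control cells and 6.36 after ablation, a difference of -1.49 or 2.81-fold lower. It was the 52nd lowest of the 12323 genes past the filter. Of the 4242 among them with a mean signal within 0.5 of its own, 0.306% were as low. Slit3, cluster 17248426, had 8.64 and 7.68, a difference of -0.96 or 1.95-fold lower, just short of 2-fold. Both slits past the filter were thus lower, and Slit3 stayed well above the filter in both samples while Slit2 dropped under it. Slit1, best known from the nervous system, was below the filter at 6.33 and 6.04.

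The roundabout receptors past the filter, Robo1 and Robo4, were lower too, Robo1 passing through the control sample alone. Robo1, the slit receptor studied in mammary ducts, had 7.01 in control cells and 6.14 after ablation (difference -0.87, 1.83-fold lower). Of 3377 genes of like signal, 2.34% were as low as Robo1. Robo4, a roundabout receptor of endothelium, had 6.89 and 6.52 (difference -0.37), and 12.3% of 3912 genes of like signal were as low. Robo2, which adjoins Robo1 on chromosome 16 with 0 protein-coding genes between them, lay below the filter at 5.82 and 5.04, and Robo3, which adjoins Robo4 on chromosome 9, lay below it at 5.28 and 5.45. Of all 7 slits and roundabouts, 6 were lower and Robo3 was higher, while 47.0% of all genes were lower without a filter. Their median of -0.78 was the value of Robo2, which lay below the filter. The 4 past the filter had a median of -0.92, but Slit2 and Robo1 passed through the control sample alone. Slit3 and Robo4, which passed in both samples, had a median of -0.665.

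Semaphorins were lower in most classes and near 0 in class 4. Of all 20, 14 were lower, 5 higher and 1 equal (median -0.26), while 47.0% of all genes were lower without a filter. With 6 of the 20 below the filter, the rest split into 10 lower, 3 higher and 1 equal. In the secreted class 3 and the membrane classes 5, 6 and 7, 13 of 14 were lower and Sema6c was higher, with a median of -0.35. Of these 14, 9 passed the filter, but Sema3c, Sema3g, Sema5b and Sema6b passed through the control sample alone and so had to be lower. The 5 past the filter in both samples ran from -0.97 to -0.32. In class 4, whose members span the membrane and carry an immunoglobulin domain, 1 of 6 was lower, 4 were higher and 1 equal, with a median of 0.03 and a range from -0.35 to 0.32. The difference between the classes was not tested.

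Among the secreted class 3 semaphorins past the filter, Sema3c had the largest difference. Sema3c, which binds neuropilins and acts through plexins such as Plxnd1, had 7.30 in control cells and 6.05 after ablation (difference -1.25, 2.38-fold lower). It was the 101st lowest gene, and 0.552% of 3806 genes of like signal were as low. Its relatives Sema3f, a ligand of Nrp2, at 7.66 and 7.34, and Sema3g, at 6.53 and 6.38, had differences of -0.32 and -0.15. The size seen in Sema3c was thus not seen in Sema3f or Sema3g. The other 4 of the class, Sema3a, Sema3b, Sema3d and Sema3e, lay below the filter with differences between -0.42 and -0.08. Their signals may be background, so they cannot be set beside Sema3c.

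In the membrane classes, Sema6a, a ligand of Plxna2 and Plxna4, had 7.90 in control cells and 6.93 after ablation (difference -0.97, 1.96-fold lower). Sema5a, which carries thrombospondin repeats outside the cell, had 7.70 and 6.93 (difference -0.77). Sema7a, held by a lipid anchor and a ligand of Plxnc1 and of integrins, had 8.82 and 8.21 (difference -0.61). These 3 were above the filter in both samples, and 2.18%, 3.25% and 4.33% of genes of like signal were as low as Sema6a, Sema5a and Sema7a. Sema6d, a ligand of Plxna1, had 7.82 and 7.34 (difference -0.48), Sema5b had a difference of -0.38, Sema6b one of -0.19, and Sema6c lay below the filter at 5.87 and 5.99 (0.12).

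Class 4 held the semaphorins past the filter that were higher after ablation. Sema4d (CD100), known from T cells and a ligand of plexin B receptors and of Cd72, had 8.92 in control cells and 9.21 after ablation, a difference of 0.29 that was the highest of all guidance genes past the filter. Of 2115 genes of like signal, 7.99% were as high. Sema4a, known from dendritic cells and T cells, had 8.97 and 9.02, Sema4b had 8.18 in both samples, and Sema4f had 7.26 and 7.27; quantile scaling put both just below 0, at -0.03 and -0.005. Sema4c, a ligand of Plxnb2, was the exception at 7.72 and 7.37 (difference -0.35), and Sema4g lay below the filter at 4.77 and 5.09. After ablation 11 of 12 T and NK cell markers were higher (median 0.23, with summed linear signals of 11001 in control cells and 12984 after ablation), from Cd4 (-0.03) to Klrk1 (0.96). B cell markers had a median of 0.04 over 6, with sums of 9428 and 9321, from Cd79b (-0.21) to Cr2 (0.22). The part of these cells in the class 4 values was not tested.

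**Figure D2:**
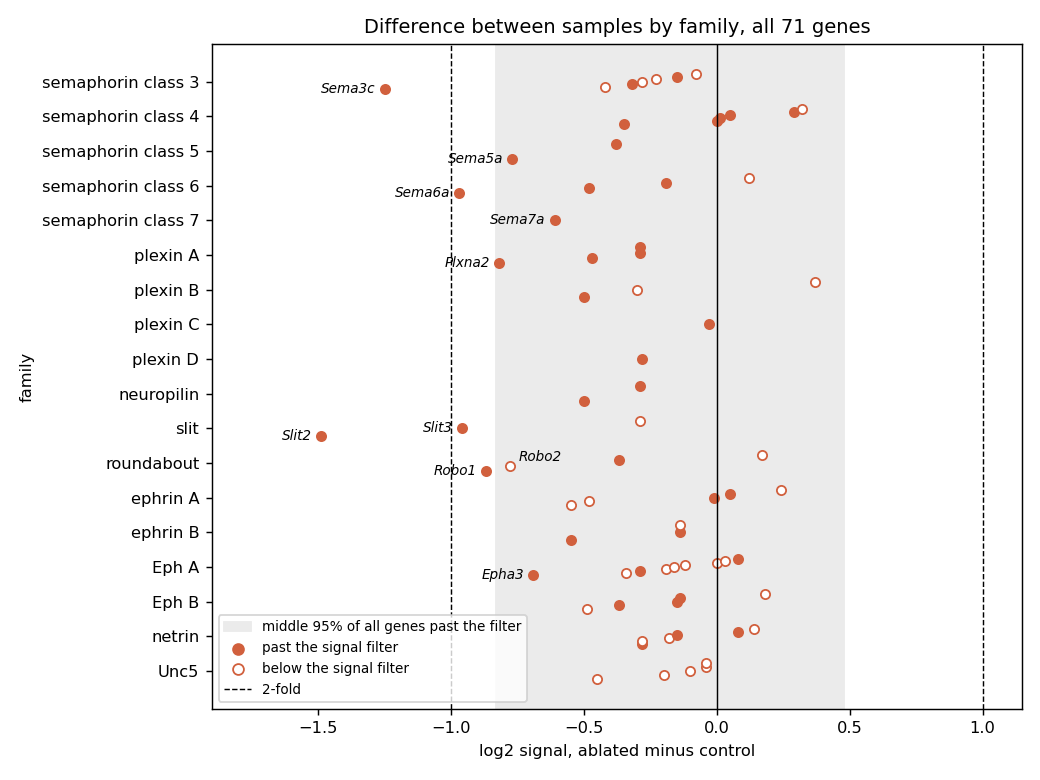
Difference in log2 signal, ablated minus control (x axis), of all 71 guidance genes by family, filled where the gene passed the signal filter and open where it did not. The grey band is the middle 95% of all genes past the filter, from -0.83 to 0.48, and the dashed lines mark 2-fold: Slit2, Sema3c, Sema6a, Slit3 and Robo1 lie left of the band, and 0 guidance genes lie right of it.

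Most semaphorin receptors were lower as well. Of all 9 plexins, 8 were lower and 1 was higher (median -0.29), while 47.0% of all genes were lower without a filter. The 7 past the filter were lower, 5 of them past it in both samples, while Plxna3 and Plxna4 passed through the control sample alone. Plxna2, a receptor of Sema6a and a partner of neuropilins, had 7.74 in control cells and 6.92 after ablation (difference -0.82, 1.77-fold lower), and 2.85% of 4104 genes of like signal were as low. Plxnb2, a receptor of Sema4c, and the neuropilin Nrp2 each had 8.29 and 7.79 (difference -0.50). Plxna2 was the only receptor of this group at least 1.5-fold lower.

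The remaining semaphorin receptors lay closer to 0. Plxna3 had a difference of -0.47, Plxna1 and Plxna4 of -0.29 each, and Plxnd1, the receptor of Sema3e known from endothelium, of -0.28. Nrp1, which also binds VEGF, had 7.82 and 7.53 (difference -0.29). Plxnc1, the receptor of Sema7a, had 9.05 and 9.02 and so differed little where its ligand was lower by 0.61. Plxna1 stood on 2 rows of the table, and the dimmer row had a difference of -0.55. Plxnb3 lay below the filter at 5.57 and 5.27. Plxnb1, a receptor of Sema4d, also lay below it at 5.49 and 5.86, and its difference of 0.37 was the highest of all 71 guidance genes, but its other row had 5.62 in both samples.

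Ephrins and Eph receptors had smaller differences. Of 22, 16 were lower, 5 higher and 1 equal (median -0.15), while 47.0% of all genes were lower without a filter. The filter was passed by 10, of which 8 were lower and 2 higher. Among these, Epha3 and Ephb4 passed through the control sample alone and Epha10 through the ablated sample alone. Efnb2, the ephrin of arterial endothelium, had 7.25 in control cells and 6.70 after ablation (difference -0.55, 1.46-fold lower, and 5.12% of genes of like signal as low). Its receptor Ephb4, known from veins, had 6.71 and 6.34 (difference -0.37). Epha3, a receptor of ephrin A ligands, had 6.48 and 5.79 (difference -0.69, 1.61-fold lower), but passed the filter only narrowly and in the control sample alone. As low were 5.42% of its 1476 genes of like signal. At so low a mean, a gene gets past the filter only if its signals lie far apart. That share is thus not one of all genes of such a mean. Epha3 was the only one of this group at least 1.5-fold lower.

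The rest of this system lay nearer to 0. Efna1 had 6.98 and 7.03, Efna2 had 7.15 and 7.14, and Efnb1 had 7.28 and 7.14. Epha2, a receptor of Efna1, had a difference of -0.29, Ephb3 of -0.15 and Ephb6, whose kinase domain is inactive, of -0.14. Epha10 was higher by 0.08. The other 12 lay below the filter, with differences from -0.55 in Efna5 to 0.24 in Efna4. Efna1, Efna3 and Efna4, which follow each other on chromosome 3 with 0 protein-coding genes between them, had differences of 0.05, -0.48 and 0.24.

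Most netrins and Unc5 receptors had small differences. Of all 11, 9 were lower and 2 higher, with a median of -0.15, while 47.0% of all genes were lower without a filter. But 8 of the 11 lay below the filter, where signals may be background. Of the 3 past it, 2 were lower and 1 was higher, and Ntn4 passed through the control sample alone. Ntn1, the classic secreted netrin, had 7.41 in control cells and 7.13 after ablation (difference -0.28). Ntn4, a netrin of basement membranes, had 6.56 and 6.41 (difference -0.15), and the membrane-anchored Ntng2 had 6.84 and 6.92 (0.08). All 5 symbols of the Unc5 pattern lay below the filter and had differences from -0.45 to -0.04. Unc5b, a netrin receptor known from vessels, lay just below it at 6.33 and 5.88 (difference -0.45). Ntn3, Ntn5 and Ntng1 also lay below it, with differences of -0.18, 0.14 and -0.28.

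Of the 12 guidance genes past the filter with a difference of at least 0.5 either way, all were lower, and in 4 of them (Slit2, Sema3c, Robo1 and Epha3) the ablated signal lay below the filter. Signals that low may be background, so the size of those differences is uncertain. The 2-fold line fell between Sema3c at -1.25 and Sema6a at -0.97, and the 1.5-fold line, 0.58 on the log2 scale, between Sema7a at -0.61 and Efnb2 at -0.55. In the authors' deposited table, the linear fold of control over ablated was 2.81 for Slit2, 2.38 for Sema3c, 1.95 for Sema6a and 1.94 for Slit3.

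**Figure D3:**
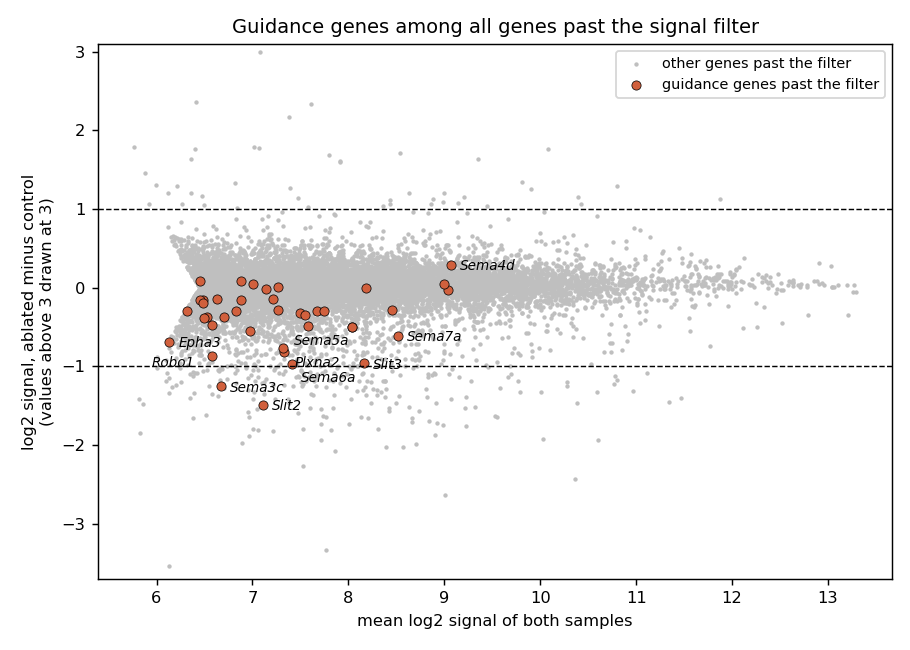
Difference in log2 signal, ablated minus control (y axis), against the mean log2 signal of both samples (x axis), for the 12323 genes past the signal filter, with the 40 guidance genes drawn larger. The dashed lines mark 2-fold: only Slit2 (-1.49) and Sema3c (-1.25) lie beyond one, and Sema4d (0.29) is the highest guidance gene.

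Other genes of guidance signalling, outside these families, differed less by the median. The list mixed effectors inside the cell with further receptors, ligands and membrane proteins. Of 78 listed, 75 were found and 57 passed the filter, 37 lower and 20 higher (median -0.12). Of the 57, 1 was at least 2-fold lower (1.75%, near the 1.73% of all genes) and 6 at least 1.5-fold lower (10.5%, against 4.67%). Neo1, Flrt2 and Srgap1 among these 6 passed the filter through the control sample alone and so had to be lower. So did Dpysl4 and Ablim3 among the other lower genes. Mical2, an enzyme that oxidises actin and a relative of the plexin effector Mical1, had 8.11 in control cells and 6.91 after ablation (difference -1.20). Plxdc2, a membrane protein with a plexin-like domain, followed at -0.80, then Neo1 (neogenin), a netrin and RGM receptor, at -0.76 (7.12 and 6.36), and Flrt2, a ligand of Unc5 receptors, at -0.73. Highest were Cd72, the B cell receptor of Sema4d (0.27), Pik3r1, a subunit of PI3 kinase (0.22), Srgap3, a relative of the slit effector Srgap1 (0.17), and Adam10, a protease that cuts ephrins (0.17). The slit effector Srgap1 had a difference of -0.68.

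Markers of stromal and vascular cells moved in the same direction as the guidance genes. All 12 fibroblast markers were lower (median -1.34), 9 of them at least 2-fold, with summed linear signals of 14892 in control cells and 8189 after ablation, from Pdgfra (-1.98) to Fap (-0.07). All 11 endothelial markers past the filter were lower (median -0.37, sums of 4535 and 3394), from Cldn5 (2-fold lower) to Pecam1 (-0.08). All 8 mural markers past it were lower (median -0.37, sums of 1442 and 1005), from Rgs5 (2-fold lower) to Myh11 (-0.30). Schwann cell markers were lower in 4 of 4 cases (median -0.41, sums of 898 and 566.6), from Scn7a (-1.19) to Mbp (-0.14), and adipocyte markers in 3 of 3 (median -0.79, sums of 3034 and 1718), from Car3 (-1.15) to Lpl (-0.77). Macrophage markers were lower in 9 of 10 (median -0.26, sums of 6371 and 5516), from C1qa (-0.59) to Mrc1 (0.20), and luminal epithelial markers in 3 of 6 (median -0.01, sums of 3640 and 3511), from Cdh1 (-0.37) to Krt19 (0.21). By the median, fibroblast markers were lower than each guidance family, and the part of these cells in the guidance values was not tested.

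**Figure D4:**
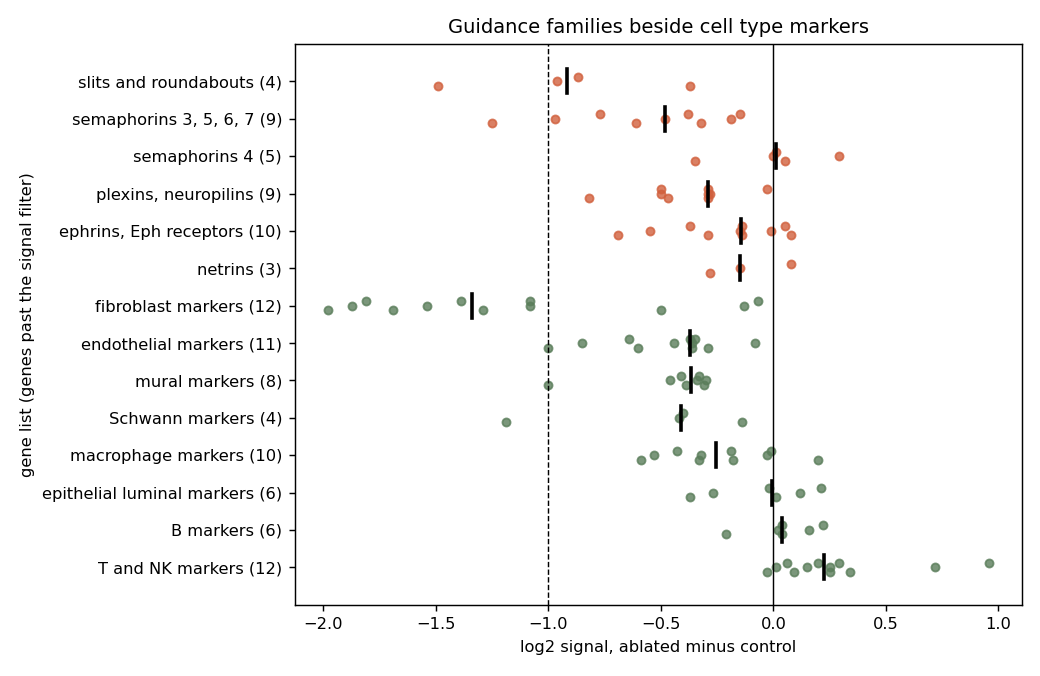
Difference in log2 signal, ablated minus control (x axis), of the guidance genes past the signal filter by group (upper rows) and of cell type markers past it (lower rows), with the number of genes in brackets and a black bar at each median. Among the markers drawn, the slits and roundabouts (median -0.92) lie between the Schwann cell (-0.41) and fibroblast (-1.34) markers. Slit2 and Robo1 in that row passed the filter through the control sample alone. Class 4 semaphorins (0.01) lie between luminal epithelial (-0.01) and B cell (0.04) markers. Adipocyte markers, with a median of -0.79, are not drawn.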

How the data were processed

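RNA of 2 samples was hybridised to Affymetrix arrays. The authors deposited log2 signals (bi-weight averages, per the file headers) for 41345 transcript clusters, 27036 with a gene symbol, and a score beside them: the signed linear fold of control over ablated. A second table of log2 values, which the authors deposited in the series matrix, served as an alternative. The submitters' processing notes name Transcriptome Analysis Console; its version, the array type, normalization, background correction and build are not stated there. Detection calls were not used here, and the number of arrays limits the precision.

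Each symbol was represented by its brightest row, by mean signal. Differences were counted at 2-fold and 1.5-fold among genes past the signal filter of 6.445, without a test. Genes of like signal were genes past the filter with a mean signal within 0.5. For Robo1, Robo4, Sema3c and Epha3 that range reached under the filter. There only genes with 1 signal above the filter entered, so these shares are not of all genes of that mean. Guidance genes with a difference of at least 0.5 were given in full. Marker lists and the list of signalling genes were taken from general knowledge, and guidance genes and lists were chosen with earlier results of these data known. Adgre1, Draxin, Arhgap35 and Grb4 were not found by symbol. Only the choice of 1 row per symbol and the 2-fold call were tested on simulated data, with a shift planted in randomly chosen genes. The signal filter, the 1.5-fold counts and the shares among genes of like signal were not tested in this way. Tables were handled in pandas 2.3.3 and numpy 2.4.6 under Python 3.11.15, the loess came from statsmodels 0.14.6, and plots from matplotlib 3.10.9.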

Additional observations from a re-analysis of the deposited data

How the results depend on the processing

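The counts of 2 guidance genes at least 2-fold lower, 0 at least 2-fold higher and 9 at least 1.5-fold lower, and the median of -0.29, were recomputed with quantile scaling, with the median of all differences at 0, with a loess on mean signal removed (span of 0.3), with the rows of a symbol averaged, with the deposited fold, and with the value table of the series matrix. These 3 counts stayed as they were under the 6 settings, and the median ran from -0.32 to -0.29. Several of the settings could hardly move them, however. Setting the median to 0 shifted the differences by 0, and the value table agreed within 0.006 in every guidance gene. The deposited fold restates the same signals, and averaging rows touched only Ephb1, Plxna1 and Plxnb1 among the guidance genes. Only quantile scaling and the loess changed the scaling. The split of 33 lower, 6 higher and 1 equal became 35, 5 and 0 with quantile scaling (87.5% lower), where Sema4b and Sema4f turned lower, and 34, 6 and 0 with the loess (85% lower), where Sema4b did. Each of the 12 guidance genes with a difference of at least 0.5 was lower under all 6, and no difference among these and the 3 genes nearest to 0 moved by over 0.041. The 12 were picked for that size, so shifts this small could not change their direction. The filter mattered more. With the filter at the 75th percentile (7.87), 11 guidance genes passed, 0 of them were at least 2-fold lower and 3 at least 1.5-fold lower, since Slit2 and Sema3c did not pass. Without a filter all 71 counted, with 2 and 10 lower by those folds (2.82% and 14.1%, against 0.933% and 3.30% of all genes). With a filter on the mean signal, chosen after seeing the data, 38 passed, with 2 and 8 (5.26% and 21.1%, against 1.61% and 4.21% of all genes). At thresholds of 1.5-fold and 3-fold, 9 and 0 were lower. The shares of all genes at 3-fold and past the 75th percentile were not computed. No paired analysis was possible because each group has 1 sample. How far a low signal exceeds background is unknown, which limits the size of the differences of Slit2, Sema3c, Robo1 and Epha3.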

Other observations

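The deposited comparison table and the value table of the series matrix hold the same log2 signals, within 0.006, in 41343 of 41345 rows. The 2 rows that differ by more are those of Gli2, the ablated gene, and Bmp7, which the study's design names. For Gli2 the control signal was 5.94 in both tables, and the ablated signal was 5.32 in the comparison table and 5.72 in the value table, so that the difference was -0.62 or -0.22. For Bmp7 the control and ablated signals were 7.79 and 7.14 in the comparison table (difference -0.65) and 7.90 and 7.56 in the value table (difference -0.35). The authors' deposited table gives a linear fold, control over ablated, of 1.56 for Gli2 and 1.58 for Bmp7, which on the log2 scale are 0.64 and 0.66. Which table holds the arrays' original values was not tested.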
